A study of Mus musculus with 18 samples.

Results

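Messenger RNA of 39 genes for DNA break repair and the response to replication stress was followed in C3H/10T1/2 cells, a mouse line of mesenchymal progenitor cells (MPCs), with and without Atrx. The genes were chosen by name, and all 39 of 39 were found among the 24100 genes of each deposited count table by matching the table's gene identifier to the symbol. They comprise 8 genes of homologous recombination, 5 of end resection, 7 of checkpoint signalling and 3 subunits of the single-strand binding complex RPA. The others are 3 of the Fanconi pathway, 3 RecQ helicases, 2 for cutting branched DNA (a nuclease and a scaffold), 7 of end joining and Parp1. The question was whether these genes differ between WT cells and the 2 Atrx KO clones.

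The study carried 3 lines, each as 3 polyA-selected and 3 rRNA-depleted RNA-seq libraries. WT is the line that received the Cas9 vector with no guide, sg5 is clone G7 made with 1 Atrx guide, and sg6 is clone B10 made with a second guide. All 3 lines are untreated C3H/10T1/2 cells, each KO line is 1 single-cell clone, and both clones are set against the same WT libraries. The labels do not say that the 3 libraries of a line came from separate cultures, so the p-values measure the spread between libraries of 1 line, and whatever else differs between the lines cannot be told apart from the loss of Atrx.

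Cells mend a broken chromosome along several routes. Homologous recombination copies the intact sister chromatid after the ends have been resected, and it runs mainly in S and G2 phase. Non-homologous end joining ligates the ends directly in any phase of the cycle. ATM and ATR are the kinases that signal breaks and stalled forks, and the Fanconi proteins clear crosslinks and protect forks. ATRX is a chromatin remodeler known for depositing histone H3.3 at repeats and telomeres and for a part in the repair of stalled forks. Many of the recombination, Fanconi and checkpoint genes are transcribed most in cycling cells.

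Library totals were 27544833 to 80772108 counts for polyA WT, 161036799 to 235346363 for polyA sg5 and 58918732 to 71896907 for polyA sg6, and 20135336 to 33187136 over the rRNA-depleted libraries. Depth was therefore uneven between the polyA lines. Levels are given as CPM, the counts scaled to a common library size after TMM normalization. The 39 genes were well covered, with lowest counts of 195 in a polyA library and 36 in an rRNA-depleted library, both for Palb2, and all 39 passed the filter on low counts in both kinds of library. Atrx checked the labels. It measured 300.3 ± 26.0 CPM in WT polyA libraries, 127 ± 12.2 in those of sg5 and 131 ± 9.68 in those of sg6 (SD, n = 3), and 206 ± 19.4, 78.9 ± 25.3 and 83.2 ± 12.2 in rRNA-depleted libraries. Its log2 fold changes were -1.24 and -1.20 in polyA and -1.39 and -1.31 in rRNA-depleted libraries for sg5 and sg6. Of 11 marker genes of epithelial, endothelial, immune and neural cells, 4 passed the filter in polyA libraries, and the 11 together summed to between 4.16 and 9.40 CPM in a polyA library, against 41430 to 63007 CPM for 10 mesenchymal markers. Of these, the endothelial gene Pecam1 and the epithelial cadherin gene Cdh1 were called lower in both clones, Cdh1 with 2.51 to 4.82 CPM in WT libraries, 0.827 to 1.57 for clone sg5 and 0.266 to 0.562 for clone sg6. Of the mesenchymal markers, Pdgfra fell in both polyA clones by 0.61 and 0.92 on the log2 scale and Fn1 and Pdgfrb rose. These markers' part in the results was not tested.

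Few of the 39 genes were called changed, and none was called in the same direction in both clones and both kinds of library. In polyA libraries Lig4, the ligase of end joining, and Xrcc3, a gene of homologous recombination, rose in both clones, the helicase gene Wrn rose in sg5, and the checkpoint kinase gene Chek2 fell in sg6. In rRNA-depleted libraries Brca1, Fancd2 and Atr fell in sg5 and no member passed the test in sg6. Brca1 and Fancd2 fell by more than 2-fold. Brca1, Fancd2, Lig4 and Xrcc3 were named by rule, and the other members given with library values were picked after their values were seen. Calls are edgeR quasi-likelihood tests with a Benjamini-Hochberg adjusted p under 0.05 over all features tested.

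For sg5 in polyA libraries, 3 of 39 members were higher (7.69%), against 13.6% of the 15480 genes tested, and 0 were lower, against 13.4%. For sg6, 2 were higher (5.13%), against 16.1% of genes, and 1 was lower (2.56%), against 14.6%. In this fit members were thus called no more often than genes at large in either clone. Counted without a model, every sg5 library lay above every WT library for 4 members (10.3%), against 21.2% of genes, and below for 0, against 20.3%. In sg6 the same held above WT for 3 members, against 22.4%, and below WT for 2, against 20.0%. Both clones were higher for 2 members, against 10.5% of genes, and lower for 0, against 9.7%. At an unadjusted p under 0.05 the lower counts were 1 in sg5 and 7 in sg6, and genes at large were not counted at that threshold. DESeq2, which made more false calls than its threshold allows on simulated counts, called 0 and 4 members lower, against 2592 and 2728 of 15477 genes.

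The rRNA-depleted libraries gave another split. For sg5, 0 members were higher, against 5.64% of the 13303 genes tested, and 3 were lower (7.69%), against 5.1%, of which Brca1 and Fancd2 also passed the 2-fold limit, against 4.31% of genes. For sg6, 0 were higher, against 3.55%, and 0 were lower, against 4.03%. Every sg5 library lay below every WT library for 13 members (33.3%), against 14.9% of genes, and above for 3, against 21.4%. Every sg6 library lay below WT for 6 members (15.4%), against 14.2%, and above for 0, against 17.1%. Both clones were higher for 0 members, against 2.31% of genes, and lower for 0, against 2.89%. At an unadjusted p under 0.05, 14 members were lower and 2 higher in sg5, and 7 were lower and 0 higher in sg6. Genes at large were not counted at that threshold. DESeq2 called 2 members lower in sg5 and 0 in sg6, against 713 and 616 of 13298 genes. It called 0 members higher in either clone, against 1076 genes in sg5 and 647 in sg6. Adjusted p-values here run over 56086 features, since repeat loci were tested in the same fit.

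**Figure D1:**
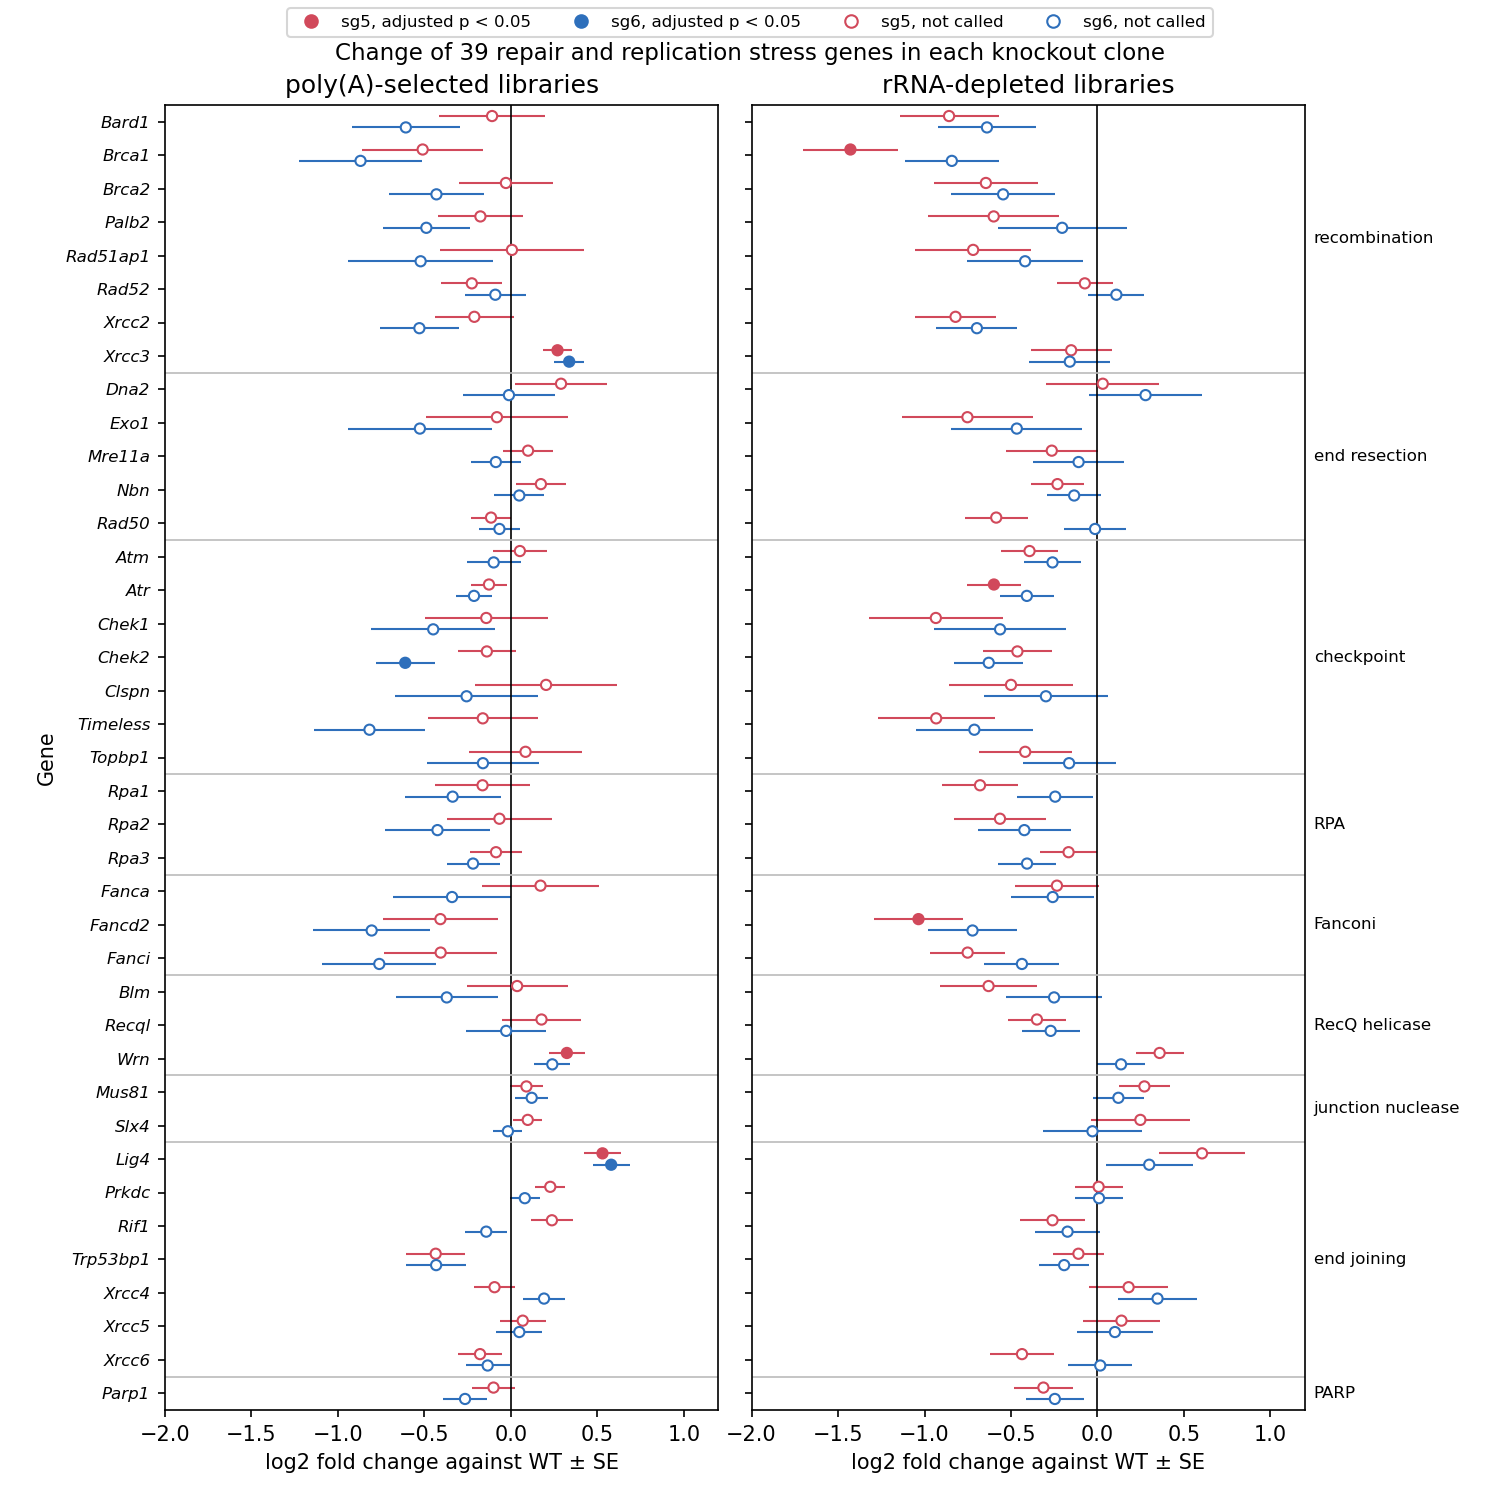
Log2 fold change against WT with its standard error for each of the 39 genes, in polyA (left) and rRNA-depleted libraries (right), with sg5 in red and sg6 in blue; filled points have an adjusted p under 0.05. In rRNA-depleted libraries 31 of 39 genes lie below 0 in sg5 and 30 of 39 in sg6, but 3 are filled. Genes at large were not counted by sign.

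Sizes were small in most members. The median log2 fold change of the 39 genes was -0.07 in sg5 and -0.22 in sg6 in polyA libraries, beside -0.002 and -0.006 over all genes, and -0.42 and -0.25 in rRNA-depleted libraries, beside 0.080 and 0.038. By sign alone, 18 genes were below 0 in both clones and both kinds of library. Another 5 were above 0 in all of these, namely Lig4, Mus81, Prkdc, Wrn and Xrcc5. Both clones were set against the same WT libraries, so their signs were not independent, and genes at large were not counted by sign. The sg5 value was lower in rRNA-depleted than in polyA libraries for 31 of 39 genes and the sg6 value for 19 of 39. These medians moved in size when 1 library was left out, but only the polyA sg5 median changed sign. In polyA libraries the sg5 median was 0.14 without WT library 1 and -0.21 without WT library 3, and the sg6 median was -0.10 and -0.37 without the same libraries. In rRNA-depleted libraries the sg5 median ran from -0.23 without sg5 library 1 to -0.58 without WT library 3. The sg6 median there ran from -0.12 without WT library 2 to -0.38 without WT library 3.

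Libraries of the same line differed in the level of these genes. WT library 3 was the lowest of the 3 polyA WT libraries for 32 of 39 members, against 38.9% of all genes, and sg6 library 3 was the lowest of its line for 28 of 39, against 33.8%. Among rRNA-depleted libraries, sg5 library 1 was the lowest of its line for 32 of 39 members, against 41.3% of all genes. In polyA WT libraries the highest value was more than 2 times the lowest for 15 of 39 members, against 14.0% of all genes, and in rRNA-depleted sg5 libraries the same held for 15 of 39, against 19.6%. The nuclease gene Exo1, picked after its values were seen, had the widest range in both of these groups, at 24.6, 17.7 and 7.16 CPM in polyA WT libraries 1 to 3 and 8.10, 27.9 and 23.5 CPM in rRNA-depleted sg5 libraries 1 to 3. Its level moved 3.44-fold within the WT line, while its log2 fold change for sg5 against WT in polyA libraries was -0.08 ± 0.41 (SE).

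**Figure D2:**
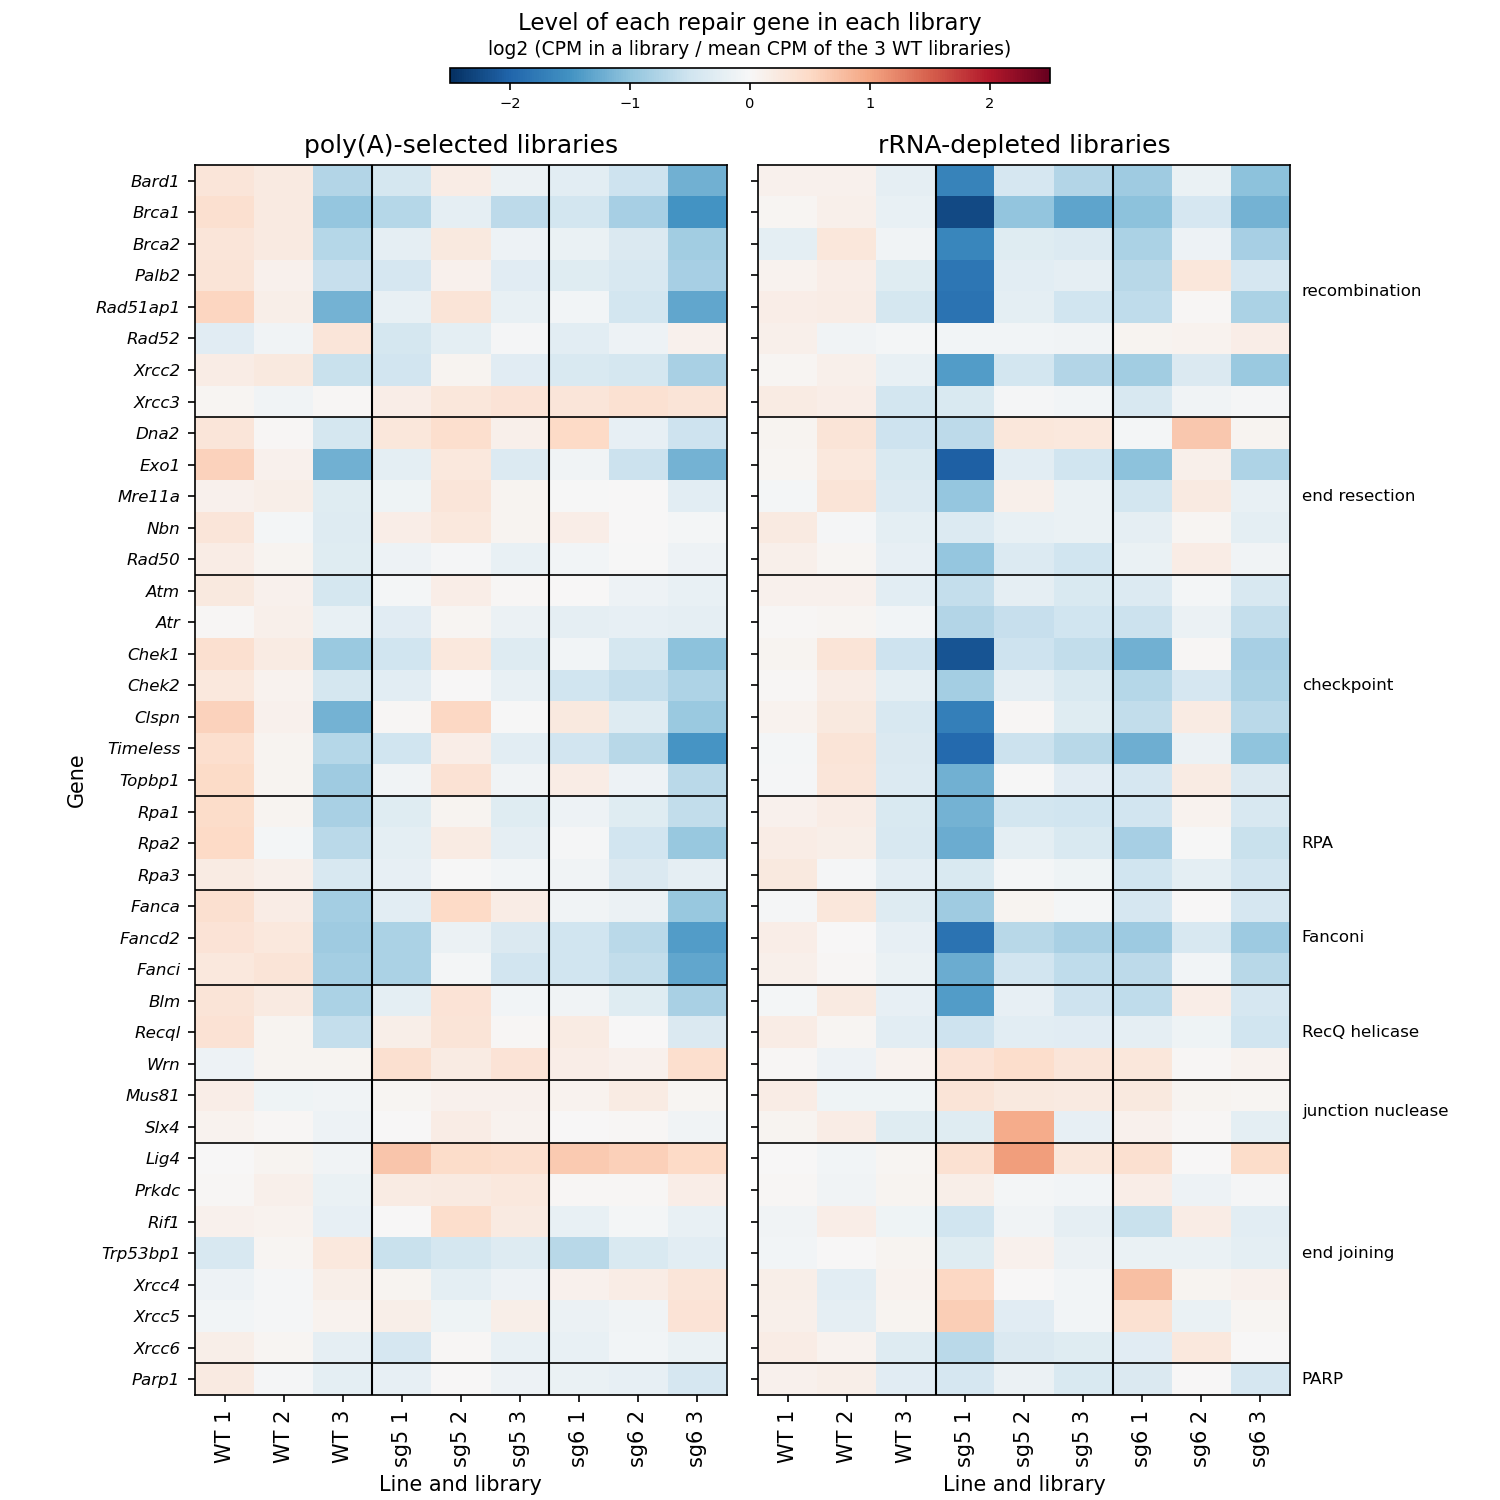
Level of each of the 39 genes in each of the 18 libraries, as log2 of its CPM over the mean CPM of the 3 WT libraries of the same kind; rows are grouped by role and columns by line. The blue columns of polyA WT library 3 and of rRNA-depleted sg5 library 1 show where most recombination, checkpoint and Fanconi genes were lowest within the line; the end joining genes summed to 345, 380 and 369 CPM in polyA WT libraries 1 to 3.

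A list of 23 proliferation genes moved with these libraries. Their summed level was 3785, 3185 and 1595 CPM in polyA WT libraries 1 to 3, and 2900, 2477 and 1602.5 CPM in sg6 libraries 1 to 3. In rRNA-depleted libraries the sum was 4369, 4403 and 3253 CPM in WT and 1653, 3547 and 3167 CPM in sg5. The 39 repair genes summed to 1878, 1710 and 1253 CPM in polyA WT libraries and to 1167, 1630 and 1489 CPM in rRNA-depleted sg5 libraries. The lowest library of a line was the same for both lists in all of these groups. No proliferation gene was called in polyA libraries by edgeR, with 2 of 23 at an unadjusted p under 0.05 in sg5 and 1 in sg6, and 1 of 23, Top2a, fell in rRNA-depleted sg5 libraries. The part of proliferation in the repair gene results was not tested.

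**Figure D3:**
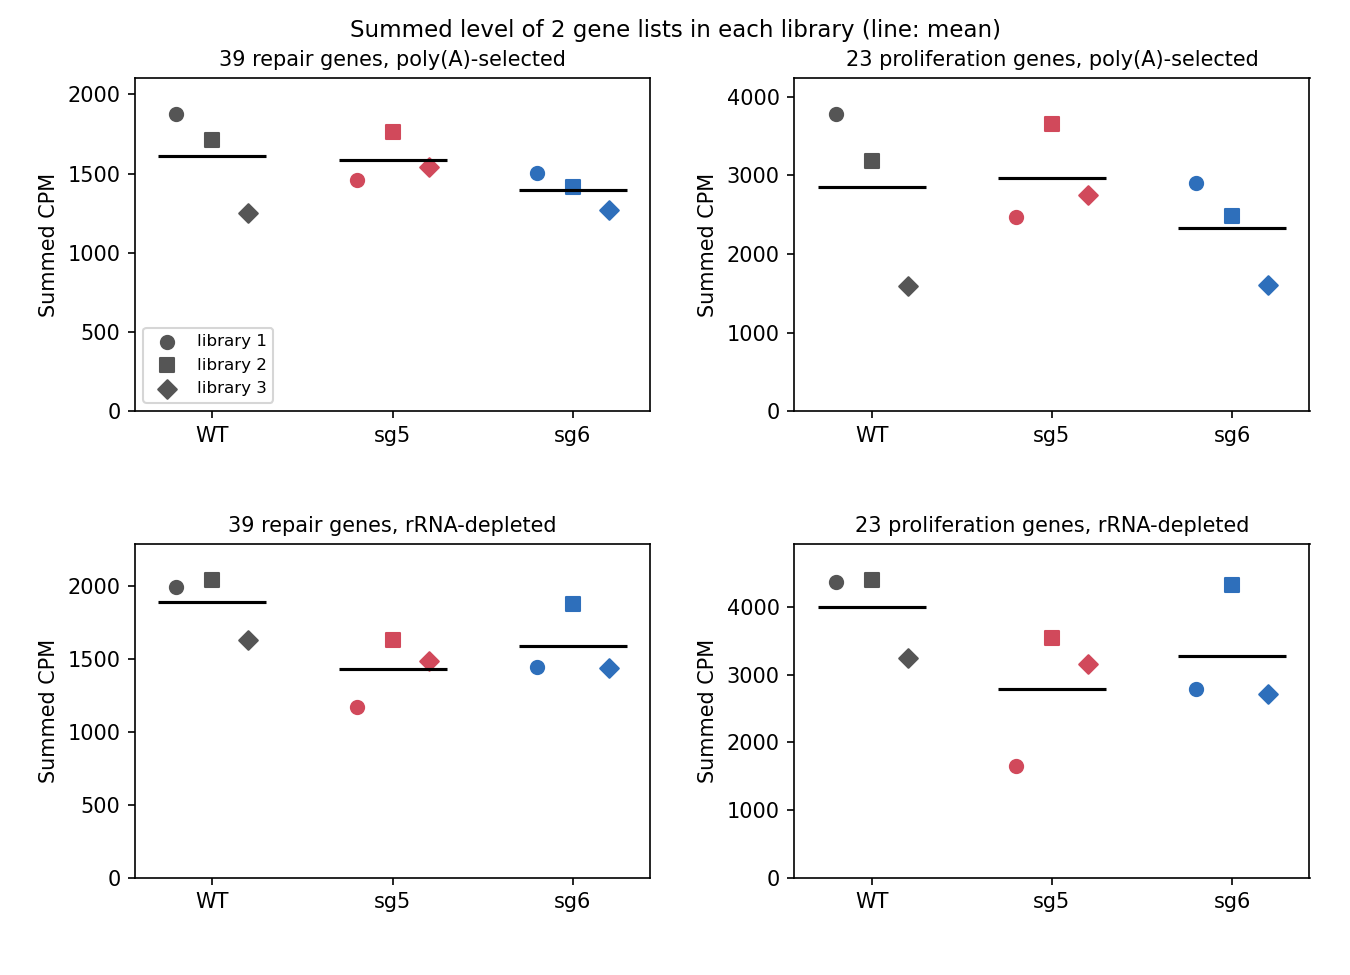
Summed CPM of the 39 repair genes (left) and of 23 proliferation genes (right) in each library, with polyA libraries above and rRNA-depleted libraries below; symbols mark libraries 1 to 3 and the line the mean. In both lists the lowest polyA WT library was library 3 and the lowest rRNA-depleted sg5 library was library 1.

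The recombination gene Brca1 had the most negative log2 fold change of the 39 members in each comparison with WT. BRCA1 and BARD1 form the ubiquitin ligase complex that commits breaks to recombination, and PALB2 bridges BRCA1 to BRCA2. Brca1 (chromosome 11, 101488764 to 101551955 on the minus strand, mm10) read 107, 112 and 90.0 CPM in rRNA-depleted WT libraries 1 to 3, 21.6, 52.3 and 41.1 in sg5 and 50.4, 76.6 and 45.3 in sg6. All 6 KO libraries lay below all 3 WT libraries. The log2 fold change was -1.43 ± 0.28 (SE) for sg5 (adjusted p = 0.0093) and -0.84 ± 0.27 for sg6 (adjusted p = 0.16). Without sg5 library 1 the sg5 value was -1.11 ± 0.23 and still passed (adjusted p = 0.011), and the sg6 value then passed as well, at -0.80 ± 0.20 (adjusted p = 0.036). In polyA libraries Brca1 read 84.2, 74.3 and 32.4 CPM in WT libraries, 39, 54.5 and 40.5 in sg5 libraries and 46.1, 35.8 and 22.5 in those of sg6, so WT library 3 lay below every sg5 library and inside the range of sg6. The polyA log2 fold changes were -0.51 ± 0.35 and -0.87 ± 0.35 (adjusted p = 0.32 and 0.094). Without WT library 3, Brca1 was among 12 members called lower in sg6, against 1 with it. In that fit 2043 of 15682 genes were called lower in sg6.

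Xrcc3 (chromosome 12, 111803192 to 111813873, minus strand), whose protein acts late in recombination, was the 1 recombination gene of 8 with a log2 fold change above 0 in both clones in polyA libraries. It read 15.9, 14.3 and 15.6 CPM in WT libraries, 17.2, 18.6 and 19.4 in sg5 libraries and 18.8, 19.9 and 19.0 in those of sg6. Both clones lay above WT in every library, by 0.27 ± 0.09 (adjusted p = 0.046) and 0.34 ± 0.09 (adjusted p = 0.017) on the log2 scale. The sg5 call was lost in 11 of 16 other fits with a test and the sg6 call in 3. In rRNA-depleted libraries Xrcc3 read 7.49, 7.33 and 4.76 CPM in WT and 4.92 to 6.40 over the 6 KO libraries, and its log2 fold changes of -0.15 ± 0.23 and -0.16 ± 0.23 did not pass. Its exons overlap those of Klc1 on the opposite strand by 12 bases.

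The other 6 recombination genes passed no test. Their log2 fold changes ran from -0.23 for Rad52 to 0.01 for Rad51ap1 in polyA sg5 libraries and from -0.61 for Bard1 to -0.09 for Rad52 in polyA sg6 libraries. Xrcc2, whose protein acts in the same pathway, lay below WT in every KO library of the rRNA-depleted kind, at 23.7, 24.7 and 19.9 CPM in WT libraries, 8.61, 16.5 and 13.7 in sg5 libraries and 12.4, 17.6 and 12 in those of sg6. The change came to -0.82 ± 0.23 and -0.70 ± 0.23 on the log2 scale (adjusted p = 0.074 and 0.18).

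Among end resection genes 0 of 5 passed in any comparison with WT. Mre11a, Rad50 and Nbn encode the MRN complex, which senses ends and starts resection, and EXO1 and DNA2 extend it. Rad50 differed most between the clones in rRNA-depleted libraries. It read 53.2, 50.6 and 42.0 CPM in WT libraries, 24.9, 38.1 and 34.2 in sg5 libraries and 43.5, 55.1 and 45.7 in those of sg6, so sg5 lay below both other lines. The log2 difference of sg5 from sg6 was -0.57 ± 0.18 (adjusted p = 0.36). Over the 5 genes the polyA log2 fold changes ran from -0.11 to 0.29 in sg5 and from -0.53 to 0.05 in sg6.

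Checkpoint genes were below WT in rRNA-depleted libraries for 7 of 7 genes in both clones, and 1 call was made in each kind of library. Of all 39 members, 31 in sg5 and 30 in sg6 were below WT there, and genes at large were not counted by sign. Chek2 (chromosome 5, 110839979 to 110874145, plus strand), the kinase downstream of ATM, read 20.6, 18.4 and 12.8 CPM in polyA WT libraries, 14.4, 17.4 and 15.3 in sg5 and 12.3, 11.5 and 10.1 in sg6. Every sg6 library lay below every WT library, while sg5 overlapped WT. The log2 fold change was -0.61 ± 0.17 in sg6 (adjusted p = 0.025) and -0.14 ± 0.17 in sg5 (adjusted p = 0.59). The difference of the clones was 0.47 ± 0.17 (adjusted p = 0.18), and it passed without WT library 3. The sg6 call was lost without WT library 1, WT library 2, sg6 library 2 or sg6 library 3, with adjusted p-values of 0.062 to 0.081.

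Atr (chromosome 9, 95857597 to 95951781, plus strand), the kinase of stalled forks, read 70.2, 71.8 and 65.6 CPM in rRNA-depleted WT libraries, 41.9, 46.3 and 48.9 in sg5 and 47.9, 62.9 and 45.7 in sg6. All KO libraries lay below WT. The log2 fold changes were -0.60 ± 0.16 (adjusted p = 0.048) and -0.41 ± 0.15 (adjusted p = 0.25). The sg5 call was lost in 12 of 17 other fits, each of the 9 fits that left out a library among them. In polyA libraries its log2 fold changes were -0.13 ± 0.11 and -0.21 ± 0.11 (adjusted p = 0.41 and 0.16). Exons of Atr overlap the opposite-strand genes 1700065D16Rik and Gm16794 and the small gene Gm24004. Of the remaining checkpoint genes, Atm, Chek1, Topbp1, Clspn and Timeless, none passed, with polyA log2 fold changes from -0.16 to 0.20 in sg5 and from -0.82 for the fork protection gene Timeless to -0.10 in sg6.

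The 3 RPA genes, which code for the complex that coats single-stranded DNA, were below WT in each comparison and none passed. In rRNA-depleted libraries the log2 fold changes in sg5 and sg6 were -0.68 ± 0.22 and -0.24 ± 0.22 for Rpa1, -0.56 ± 0.27 and -0.42 ± 0.27 for Rpa2 and -0.17 ± 0.17 and -0.41 ± 0.17 for Rpa3. In polyA libraries they ran from -0.16 to -0.07 in sg5 and from -0.42 to -0.22 in sg6.

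FANCD2 and FANCI are the pair that is ubiquitinated at crosslinks, and FANCA belongs to the core complex that does it. Fancd2 (chromosome 6, 113531682 to 113597017, plus strand) read 39.9, 36.1 and 31.1 CPM in rRNA-depleted WT libraries, 9.87, 22.0 and 20.4 in sg5 and 19.0, 26.9 and 18.9 in sg6. Neither clone overlapped WT. The log2 fold changes were -1.03 ± 0.26 (adjusted p = 0.041) and -0.72 ± 0.26 (adjusted p = 0.21). Without sg5 library 1 the sg5 value was -0.72 ± 0.21 (adjusted p = 0.087). The same call was lost without any 1 of the WT libraries, sg5 library 3 or sg6 library 3. Fanci followed at -0.75 ± 0.22 in sg5 and -0.44 ± 0.22 in sg6, and Fanca at -0.23 ± 0.24 and -0.26 ± 0.24, and neither passed. Exons of Fancd2 overlap the opposite-strand gene Fancd2os by 257 bases, and the strand setting of the counting was not stated.

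RecQ helicases unwind recombination intermediates. Wrn (chromosome 8, 33234384 to 33385527, minus strand) read 76.7, 87.5 and 87.8 CPM in polyA WT libraries, 112, 97.1 and 107 in sg5 and 94.2, 90.5 and 113 in sg6. Both clones lay above WT, by 0.32 ± 0.10 (adjusted p = 0.046) and 0.24 ± 0.10 (adjusted p = 0.11) on the log2 scale. The sg5 call was lost in 10 of 16 other fits with a test. In rRNA-depleted libraries the values were 0.36 ± 0.14 and 0.14 ± 0.14 (adjusted p = 0.20 and 0.78). Blm and Recql had polyA log2 fold changes of 0.04 and 0.18 in sg5 and of -0.37 and -0.03 in sg6. The nuclease gene Mus81 and the scaffold gene Slx4 did not pass either, with polyA log2 fold changes of 0.09 and 0.10 in sg5 and of 0.12 and -0.02 in sg6.

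End joining genes were divided. KU70 and KU80, from Xrcc6 and Xrcc5, bind the ends, DNA-PKcs from Prkdc is recruited to them, XRCC4 and LIG4 seal them, and 53BP1 from Trp53bp1 with RIF1 holds back resection. Lig4 (chromosome 8, 9969049 to 9977686, minus strand) read 9.54, 9.99 and 8.92 CPM in polyA WT libraries, 15.3, 13.1 and 12.7 in sg5 and 14.8, 14.2 and 13.5 in sg6. Every KO library lay above every WT library. The rises of 0.53 ± 0.11 (adjusted p = 0.0063) and 0.58 ± 0.11 (adjusted p = 0.0034) on the log2 scale were the highest of the 39 genes, and both calls were kept in all 16 other fits with a test. In rRNA-depleted libraries Lig4 read 4.08, 3.86 and 4.15 CPM in WT libraries, 5.21, 8.35 and 4.90 in sg5 libraries and 5.30, 4.08 and 5.51 in those of sg6, with log2 fold changes of 0.60 ± 0.25 and 0.30 ± 0.25 (adjusted p = 0.24 and 0.73). Trp53bp1 lay at the other end of this group in polyA libraries, at 83.2, 114 and 133 CPM in WT libraries, 74.5, 81.6 and 88.7 in sg5 libraries and 68.1, 84.8 and 92.3 in those of sg6. Both clones stood at a log2 fold change of -0.43 ± 0.17 (adjusted p = 0.091 and 0.087), and without WT library 1 Trp53bp1 was called lower in both. Its exons overlap those of Tubgcp4 on the opposite strand. The other 5 genes had polyA log2 fold changes between -0.18 and 0.24 in sg5 and between -0.14 and 0.19 in sg6. Parp1, which senses nicks and breaks, was at -0.10 ± 0.13 and -0.27 ± 0.13 in polyA and at -0.31 ± 0.17 and -0.25 ± 0.17 in rRNA-depleted libraries.

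**Figure D4:**
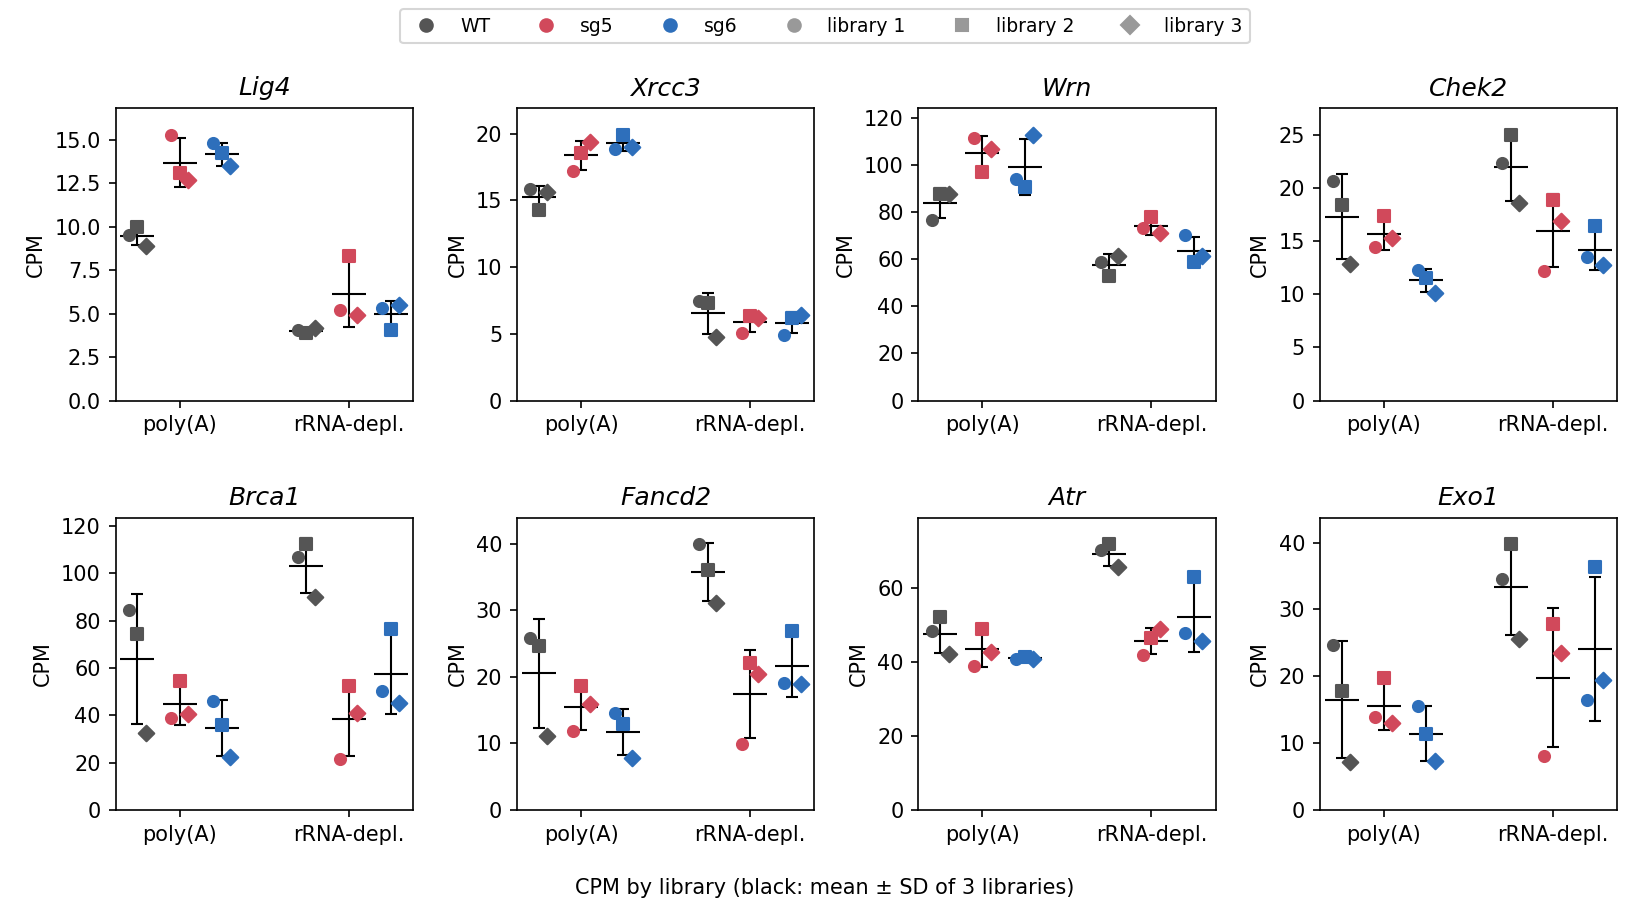
CPM of the 7 members called in any comparison with WT, and of Exo1, in each library, with the mean and SD of 3 libraries in black; symbols mark libraries 1 to 3. Lig4 in polyA libraries stands at 8.92 to 9.99 CPM in WT and at 12.7 to 15.3 in the clones, and Brca1 in rRNA-depleted libraries at 90.0 to 112 CPM in WT and 21.6 to 76.6 in the clones.

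Genes that share a chromosome with these members moved as well. The 813 tested genes of chromosome 8, which holds Lig4 and Wrn, had a median polyA log2 fold change of 0.27 in sg5 and 0.28 in sg6, and the 544 genes of chromosome 12, which holds Xrcc3, had 0.33 and 0.36. Set against these medians, Xrcc3 came to -0.06 and -0.02 and Wrn to 0.06 and -0.04, while Lig4 kept 0.26 and 0.30 on the log2 scale. In polyA libraries the 943 genes of chromosome 5, which holds Chek2, had a median of -0.09 in sg5 and -0.22 in sg6. That sg6 median was larger in size than the standard error of the Chek2 change in sg6. In rRNA-depleted libraries Lig4 came to 0.24 and 0.03 relative to its chromosome. The 1094 genes of chromosome 11, which holds Brca1, had a median of -0.26 in sg5 and -0.07 in sg6 in rRNA-depleted libraries, and Brca1 was at -1.17 and -0.78 relative to it. The cause of the chromosome medians was not tested, and gene copy number was not measured here.

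**Figure D5:**
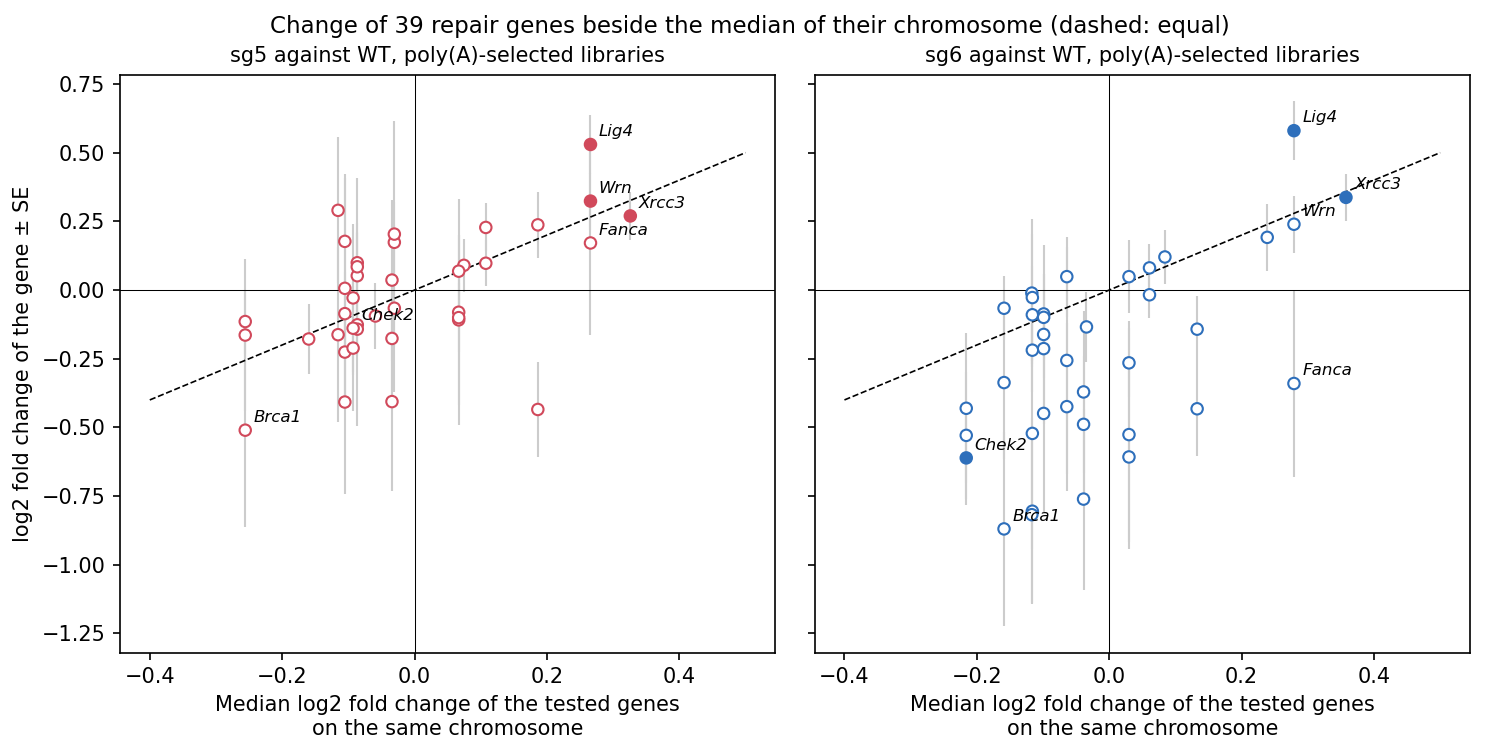
Log2 fold change of each of the 39 genes with its standard error (vertical axis) against the median log2 fold change of the tested genes on its chromosome (horizontal axis), for sg5 and sg6 against WT in polyA libraries; filled points are called and the dashed line marks equal values. Xrcc3 and Wrn lie near the line and Lig4 lies above it.

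The clones did not differ in any member by the test. Between sg5 and sg6, 0 of 39 members were called in polyA libraries, against 4.79% of genes, with 3 at an unadjusted p under 0.05, and 0 of 39 in rRNA-depleted libraries, against 1.57%, with 2 at an unadjusted p under 0.05; DESeq2 called 0 in both. The median log2 difference of sg5 from sg6 was 0.20 in polyA and -0.15 in rRNA-depleted libraries, and sg5 was the higher clone for 31 and 10 of 39 genes. The rRNA-depleted median changed sign with 1 library left out, to 0.02 without sg5 library 1 and 0.04 without sg6 library 2. The polyA median kept its sign and ran from 0.12 to 0.35. The libraries of each kind were made separately and were not tested together. In rRNA-depleted libraries the replicate numbers were taken to pair sg6 with WT. With the number as a block 800 of 13303 genes were lower in sg6, and 3 members fell, against 0 without the block. They were Brca1 at -0.89 ± 0.21 (adjusted p = 0.030), Xrcc2 at -0.72 ± 0.18 (adjusted p = 0.042) and Chek2 at -0.63 ± 0.16 (adjusted p = 0.040). Scaling and adjusting over the genes alone, without repeat loci, gave these 3 members in sg6 and 9 in sg5, namely Brca1, Bard1, Xrcc2, Rad50, Atm, Atr, Fancd2, Fanci and Rpa1. In that fit 886 of 13303 genes were lower in sg6 and 1283 in sg5.

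Levels differed widely between members. Per kilobase of exon, Rpa1 had the highest mean in polyA WT libraries at 25.3 CPM per kilobase, followed by Xrcc5 at 23 and Parp1 at 21.1. Palb2 was lowest at 0.879 CPM per kilobase, then Dna2 at 1.13 and Lig4 at 1.82. In rRNA-depleted WT libraries Rpa3 led at 64.6 and Dna2 was lowest at 0.514 CPM per kilobase. Lig4 was thus among the least abundant members in both kinds of library.

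Promoter sequence was read from RefSeq (GRCm38.p6) for 31 of the 39 members, as 33 windows of 300 bases from 250 before to 50 after a transcription start. The motifs searched, on both strands, were the E2F motif as TTTGGCGC or TTTCCCGC, the NF-Y motif as CCAAT and the cell cycle homology motif as TTTGAA. The E2F letters were found for Bard1, Brca2, Chek2 and Xrcc6, in 12.1% of the members' windows, against 1.56% of 32851 promoters, and CCAAT in 54.5%, against 37.4%. TTTGAA was in 3.03%, against 17.9%. A match describes the letters and is no evidence of binding. The windows of the 4 called members below show a window with both motifs, a window with 6 CCAAT matches, a window with 1 and a window with none, and capitals mark the E2F and CCAAT letters on either strand.

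Chek2, chr5:110839733-110840032, plus strand: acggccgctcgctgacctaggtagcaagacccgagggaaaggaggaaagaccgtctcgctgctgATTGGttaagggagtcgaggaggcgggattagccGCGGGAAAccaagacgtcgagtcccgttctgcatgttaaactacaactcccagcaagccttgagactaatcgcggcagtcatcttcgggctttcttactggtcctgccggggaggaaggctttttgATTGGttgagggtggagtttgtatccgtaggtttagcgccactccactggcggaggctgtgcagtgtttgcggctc
Xrcc3, chr12:111813830-111814129, minus strand: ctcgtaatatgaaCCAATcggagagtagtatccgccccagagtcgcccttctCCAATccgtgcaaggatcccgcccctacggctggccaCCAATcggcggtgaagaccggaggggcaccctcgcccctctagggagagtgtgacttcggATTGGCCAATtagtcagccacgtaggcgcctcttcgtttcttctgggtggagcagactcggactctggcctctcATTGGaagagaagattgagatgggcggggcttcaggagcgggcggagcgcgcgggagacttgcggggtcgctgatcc
Brca1, chr11:101551906-101552205, minus strand: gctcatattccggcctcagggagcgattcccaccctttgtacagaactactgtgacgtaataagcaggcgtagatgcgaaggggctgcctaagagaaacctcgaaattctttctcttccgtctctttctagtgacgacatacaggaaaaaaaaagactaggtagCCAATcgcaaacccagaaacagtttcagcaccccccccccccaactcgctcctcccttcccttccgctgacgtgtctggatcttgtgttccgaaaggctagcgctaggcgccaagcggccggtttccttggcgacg
Lig4, chr8:9977631-9977930, minus strand: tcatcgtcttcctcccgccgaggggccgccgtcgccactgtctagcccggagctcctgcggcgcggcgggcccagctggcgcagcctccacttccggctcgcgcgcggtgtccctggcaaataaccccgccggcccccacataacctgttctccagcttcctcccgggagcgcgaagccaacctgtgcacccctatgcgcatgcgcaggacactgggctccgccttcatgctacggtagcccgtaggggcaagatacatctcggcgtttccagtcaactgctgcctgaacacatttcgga

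In Chek2, which fell in sg6 in polyA libraries, the E2F letters begin 152 bases before the start site and the CCAAT letters 186 and 26 bases before it. Brca1, which fell in rRNA-depleted sg5 libraries, has its CCAAT match 86 bases before the start site. Lig4, which rose in both clones, has neither motif in this window. Xrcc3, which also rose in both clones in polyA libraries, has 6 CCAAT matches. Atr, which fell in rRNA-depleted sg5 libraries, has neither motif in its window. Bard1, Brca2 and Xrcc6, which also carry the E2F letters, were not called in the main fit. Fancd2 and Wrn had no window. Whether a motif goes with the direction of change was not tested.

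Of 68 other repair genes, named on a separate list, 5 were called the same way in both clones in polyA libraries. Of the 68, 1 was higher in both clones, against 10.5% of all genes, and 4 were lower, against 9.7%. Lig3, the ligase of single-strand break repair, fell by 0.48 ± 0.07 and 0.49 ± 0.07 on the log2 scale, and its scaffold partner Xrcc1 fell by 0.40 ± 0.07 and 0.39 ± 0.07. The recombination gene Rad51d fell by 0.49 ± 0.11 and 0.40 ± 0.12, and Fancg of the Fanconi core fell by 0.65 ± 0.14 and 0.56 ± 0.14. Smc6, of the SMC5/6 complex, rose by 0.54 ± 0.15 and 0.47 ± 0.15. The Smc6 call was lost in 4 of 16 other fits for sg5 and in 8 for sg6, with adjusted p-values up to 0.088 and 0.14, and the Rad51d call in 4 for sg6. Smc6 lies on chromosome 12 and Rad51d and Lig3 on chromosome 11, and relative to the chromosome medians Smc6 came to 0.22 and 0.11, Rad51d to -0.24 and -0.24 and Lig3 to -0.22 and -0.33. In rRNA-depleted sg5 libraries 3 of the 68 fell, against 5.1% of all genes. They were Fancg at -0.81 ± 0.19, Lig3 at -0.53 ± 0.13 and the BRCA1-bound helicase gene Brip1 at -1.26 ± 0.30. In sg6 none was called, against 3.55% of all genes higher and 4.03% lower. The median log2 fold change of the list was 0.01 in sg5 and -0.07 in sg6 in polyA libraries.

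Genes that p53 activates are a common readout of damage signalling downstream of ATM and CHEK2. DNA damage was not measured here, and the cause of changes in these genes was not tested. Of 21 such genes, 8 were called higher in both clones in polyA libraries (against 10.5% of all genes) and 0 lower. Sesn1 was called lower in sg6, at -0.57 ± 0.17 on the log2 scale. Cdkn1a, the cell cycle inhibitor p21, read 119, 124 and 102 CPM in WT libraries, 241, 221 and 239 in sg5 libraries and 221, 288 and 321 in those of sg6, a rise of 1.02 ± 0.14 and 1.26 ± 0.14 on the log2 scale (adjusted p = 0.00074 and 0.00020). Zmat3 rose by 0.71 and 0.75, Aen by 0.71 and 0.84 and Fas by 0.89 and 0.70. The Aen call was lost in 5 other fits for sg5 and in 1 for sg6. In rRNA-depleted libraries 0 of 20 tested passed in both clones. In sg5 none of them rose and 2 fell, the receptor gene Eda2r by 0.99 ± 0.16 and the kinase gene Plk2 by 0.67 ± 0.14 on the log2 scale. Cdkn1a rose in sg6 by 0.91 ± 0.17 (adjusted p = 0.0094) and was at 0.55 ± 0.17 in sg5 (adjusted p = 0.10).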

How the data were processed

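RNA-seq libraries of WT, sg5 and sg6 cells (3 polyA and 3 rRNA-depleted each) were grouped by their labels. The polyA table holds expected counts per gene, which the authors estimated with Salmon (0.8.2 in the submitters' processing notes) against mm10 transcripts, summed per gene and deposited as whole numbers. The rRNA-depleted table holds counts per gene and repeat locus, which the authors made by STAR (2.27.10a) alignment and TElocal and deposited with 3749927 features, of which 24100 are genes. Strand settings are not given in the sources used here. Of 24100 gene identifiers, 24045 matched a symbol. Genes took 84.5 to 89.6% of the rRNA-depleted counts.

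Counts of each kind were fitted in R 4.3.3 with edgeR 4.0.16 (TMM, quasi-likelihood test, all 9 libraries, 3 groups, no block) after filterByExpr (minimum count 10, minimum total 15), with Benjamini-Hochberg adjustment over 15480 genes or 56086 features and a threshold of 0.05. The standard error is the size of the log2 fold change over the square root of F. DESeq2 1.42.0 was an alternative, as were other scaling, filters, thinning, a 2-fold limit, the chromosome median and leaving out each library. Scripts were tested on simulated data, in which DESeq2 made more false calls than its threshold allows in both kinds of library and edgeR made fewer than DESeq2. Gene positions are from GENCODE M21 (GRCm38). Figures were drawn with matplotlib 3.10.9.

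The members and lists were chosen with earlier results of these data known. By rule, library values were given for members called the same way in both clones, between the clones, or beyond 2-fold. Those of Wrn, Chek2, Atr, Exo1, Xrcc2, Rad50 and Trp53bp1 were given outside this rule, after their values were seen. No libraries were duplicates. Same-numbered libraries deviated together between WT and sg6 (r = 0.11 to 0.54) and between sg5 and sg6 (r = 0.17 to 0.64) in rRNA-depleted libraries. They also did between sg5 and sg6 in polyA libraries (r = 0.28 to 0.37). Numbers were taken to pair groups in which each such r was above 0.1, a limit that polyA WT and sg6 narrowly missed at 0.098. The pairing comes from the data, since the labels give only the numbers, and it is uncertain. In rRNA-depleted libraries WT library 3 had r = 0.25 with sg6 library 1 and 0.11 with sg6 library 3, and sg5 library 3 had 0.56 with sg6 library 2 and 0.17 with sg6 library 3.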

Additional observations from a re-analysis of the deposited data

Results flagged for a closer look

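In all, 3 genes outside the 39 members differed between the clones in a way that set them apart. Uimc1, the BRCA1-A complex subunit RAP80, was lower in sg5 than in sg6 by -0.34 on the log2 scale in polyA libraries (edgeR adjusted p = 0.018), at 41.9, 43.0 and 41.8 CPM in WT, 40.5, 40.7 and 40.8 in sg5 and 52.2, 48.8 and 53.2 in sg6. Cdh1 was higher in sg5 than in sg6 by 1.59 (adjusted p = 0.041), and both clones were below WT. For the p53 target Ccng1 in rRNA-depleted libraries, every sg5 library lay below and every sg6 library above all WT libraries, with a log2 difference of -0.53 (adjusted p = 0.15), so the difference did not pass the test. Groups of 3 libraries are too small for a test of single outlying libraries.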

How the results depend on the processing

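Counts of members called depended on the processing. In polyA libraries, sg5 had 3 members higher, against 1 with at least 10 counts in every library, 1 after thinning to the smallest library and 0 beyond 2-fold, and 1 to 3 when a library was left out; it had 0 lower, against 0 to 1. The polyA sg6 count of 2 higher became 1 when only the 2 groups were fitted and 0 beyond 2-fold, and ran from 1 to 2 with a library left out. Genes at large called higher in sg5 were 1837 of 13438 with at least 10 counts and 1753 of 14188 after thinning. In sg6 they were 1824 of 15081 with only the 2 groups. Beyond 2-fold they were 493 in sg5 and 563 in sg6 of 15480. With a library left out they ran from 1219 to 2530 in sg5 and from 1583 to 2864 in sg6. The polyA sg6 count of 1 lower became 4 with DESeq2 and 0 beyond 2-fold, and ran from 0 to 12, the 12 being without WT library 3. Genes at large called lower were 2728 of 15477 with DESeq2 and 2043 of 15682 without WT library 3. Between the clones 0 to 1 polyA members were called with a library left out. In rRNA-depleted libraries, 3 lower in sg5 became 1 with median-of-ratios factors, 5 with no filter, 6 with at least 10 counts in every library and 9 with genes alone, and ran from 1 to 2 with a library left out. Genes at large called lower in the named fits were, in the same order, 604 of 13303, 669 of 18885, 622 of 11816 and 1283 of 13303. The sg6 count of 0 lower became 1 with no filter, 1 with only the 2 groups and 3 with genes alone, and ran from 0 to 1. For sg6 the genes at large called lower were 599 of 18885, 647 of 13041 and 886 of 13303 in these fits. The cause was not tested. Relative to its chromosome median Xrcc3 reversed, to -0.056 and -0.020, as did Pdgfrb in sg5, to -0.11.

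With the replicate number as a block, 1 member was lower in sg5 and 6 in sg6 in polyA libraries, against 2776 and 2928 of 15480 genes. Trp53bp1 was among both, at -0.41 ± 0.08 and -0.42 ± 0.08 (adjusted p = 0.0069 and 0.0058 by edgeR). In rRNA-depleted libraries 10 members were lower in sg5 and 3 in sg6, against 1044 and 800 of 13303 genes. By the limit of 0.1 the numbers did not pair WT with sg5 in either kind, or WT with sg6 in polyA libraries, where the lowest r were 0.026, -0.23 and 0.098. Libraries correlated best with their own number in 15 of 18 polyA and 12 of 18 rRNA-depleted comparisons. Precision was limited by 3 libraries of 1 line per group.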
